A study of Caenorhabditis elegans with 154 samples.

Results

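The methionine cycle and the methylation route to phosphatidylcholine were followed through 10 genes of *C. elegans* in single starved L1 larvae. The genes were chosen by sequence name, and their transcript rows were summed within each gene: *sams-1* (C49F5.1), *sams-3* (C06E7.1), *sams-4* (C06E7.3), *sams-5* (T13A10.11), *ahcy-1* (K02F2.2), *metr-1* (R03D7.1), *mthf-1* (C06A8.1), *mel-32* (C05D11.11), *pmt-1* (ZK622.3) and *pmt-2* (F54D11.1). All 10 were found among the 46765 genes of the tables. Levels are given as the deposited tpm, RSEM's transcript share values, which sum to a fixed total in each animal and are scaled for transcript length, so each level is a share of that animal's mRNA. In whole larvae, fewer cells of a type and less of an mRNA per cell cannot be told apart.

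The study asked how the density of larvae during starvation arrest alters gene expression. Embryos from bleached, well-fed mothers were left to hatch and arrest overnight without food in M9 buffer, at densities of 1, 5, 20 and 100 eggs/μL, and each sample is 1 larva. Arrested larvae came from the wild-type strain N2, with 13, 22, 16 and 23 animals at the 4 densities, and from the *fog-2* mutant, with 14, 22, 20 and 24 animals. Animals lacking *fog-2* have females in place of self-fertile hermaphrodites, so *fog-2* embryos come from mated mothers. Food, temperature and passage were shared by all groups. The study ran the *fog-2* series first and repeated it in N2, so strain and experiment cannot be told apart. Nothing in the labels tells whether the animals of a group came from separate cultures. The p-values therefore measure the spread between animals, which may share a tube.

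The methionine cycle makes S-adenosylmethionine (SAM), the methyl donor of the cell. SAM synthetases, encoded by the *sams* genes, join methionine to ATP, methyltransferases spend SAM and leave S-adenosylhomocysteine, and AHCY-1 splits this product into homocysteine and adenosine. METR-1, a vitamin B12-dependent methionine synthase, remethylates homocysteine with a methyl group carried by folate, which MTHF-1 (methylenetetrahydrofolate reductase) reduces and MEL-32 (serine hydroxymethyltransferase) loads from serine. In *C. elegans* a large use of SAM is the stepwise methylation of phosphoethanolamine to phosphocholine, started by PMT-1 and finished by PMT-2, from which the membrane lipid phosphatidylcholine is built. Mammals lack these PMT enzymes, and in worms *sams-1* is the SAM synthetase best known for its link to phosphatidylcholine and fat storage.

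The genes lie on 6 different chromosomes of the WBcel235 assembly, and all are annotated as protein coding. *sams-1* is at chrX:11965962-11969893 on the plus strand, *ahcy-1* at chrI:6836469-6838140 on the plus strand, *metr-1* at chrII:10926561-10931078 on the plus strand, *mthf-1* at chrII:7773904-7777823 on the minus strand and *mel-32* at chrIII:6440145-6443000 on the minus strand. *pmt-1* is at chrII:5278090-5282523 on the minus strand and *pmt-2* at chrV:4628580-4635263 on the plus strand. *sams-3* (chrIV:5848657-5850843, plus strand) and *sams-4* (chrIV:5844061-5846369, minus strand) are neighbors that point away from each other, and *sams-5* is at chrIV:6277433-6279522 on the minus strand.

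Among the libraries, the number of genes detected at 1 tpm or more ran from 7251 to 17884 per animal. In *fog-2* it averaged 10840 ± 1727 (SD, n = 14) at 1 egg/μL and 13320 ± 2017 (n = 24) at 100 eggs/μL, a difference of 2481 genes (two-sided permutation test, adjusted p = 0.00376). In N2 the means were 9664 ± 1020 (n = 13) and 10880 ± 2158 (n = 23), which was not called (permutation test, adjusted p = 0.131). A total of 12 animals correlated poorly with the rest of their group: 3 at 1 egg/μL and 6 at 5 eggs/μL in *fog-2*, and 1 at 1 egg/μL and 2 at 100 eggs/μL in N2. Summed markers of intestine, body wall muscle and neurons had medians of 3182 to 5870, 2564 to 5073 and 3666 to 10850 tpm over the 8 groups. Of 21 tested genes of oocytes and early embryos, 9 were higher and 0 lower at 100 than at 1 egg/μL, beside 10.3% and 2.05% of all genes tested. The count of 9 became 7 without those of the 12 animals that were at these densities, and 3 with quantile normalization. It was 1 without the animals that carry the digit 1 or the digit 3 in their names. With the number of detected genes as a covariate, or for genes with a mean of at least 10 tpm, it was 0. The sum over the 22 listed genes in *fog-2* had a median of 72.0 tpm (lowest 17.1 tpm) at 1 egg/μL and of 150.5 tpm (25.7 to 621 tpm) at 100 eggs/μL, with 3 and 0 of these genes at 0 in all animals. In N2 the medians were 83.2 and 82.9 tpm. The part of these shifts in the differences between 100 and 1 egg/μL was not tested, except where the number of detected genes is named as a covariate.

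The 10 genes spanned a wide range of abundance. By mean tpm over all animals, *pmt-1* ranked at 84 and *pmt-2* at 97 among the 18910 genes tested over all densities, with 1651 and 1449 tpm. *sams-1* (233.5 tpm) and *ahcy-1* (201 tpm) ranked at 684 and 769. *sams-3* (46.0 tpm), *mel-32* (39.3 tpm), *sams-4* (34.2 tpm) and *mthf-1* (16.6 tpm) were lower. *sams-5* (2.35 tpm) and *metr-1* (2.04 tpm) were near the limit of detection, listed at 0 in 103 and 68 animals. *sams-1*, *ahcy-1*, *pmt-1* and *pmt-2* were above 1 tpm in every animal.

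**Figure D1:**
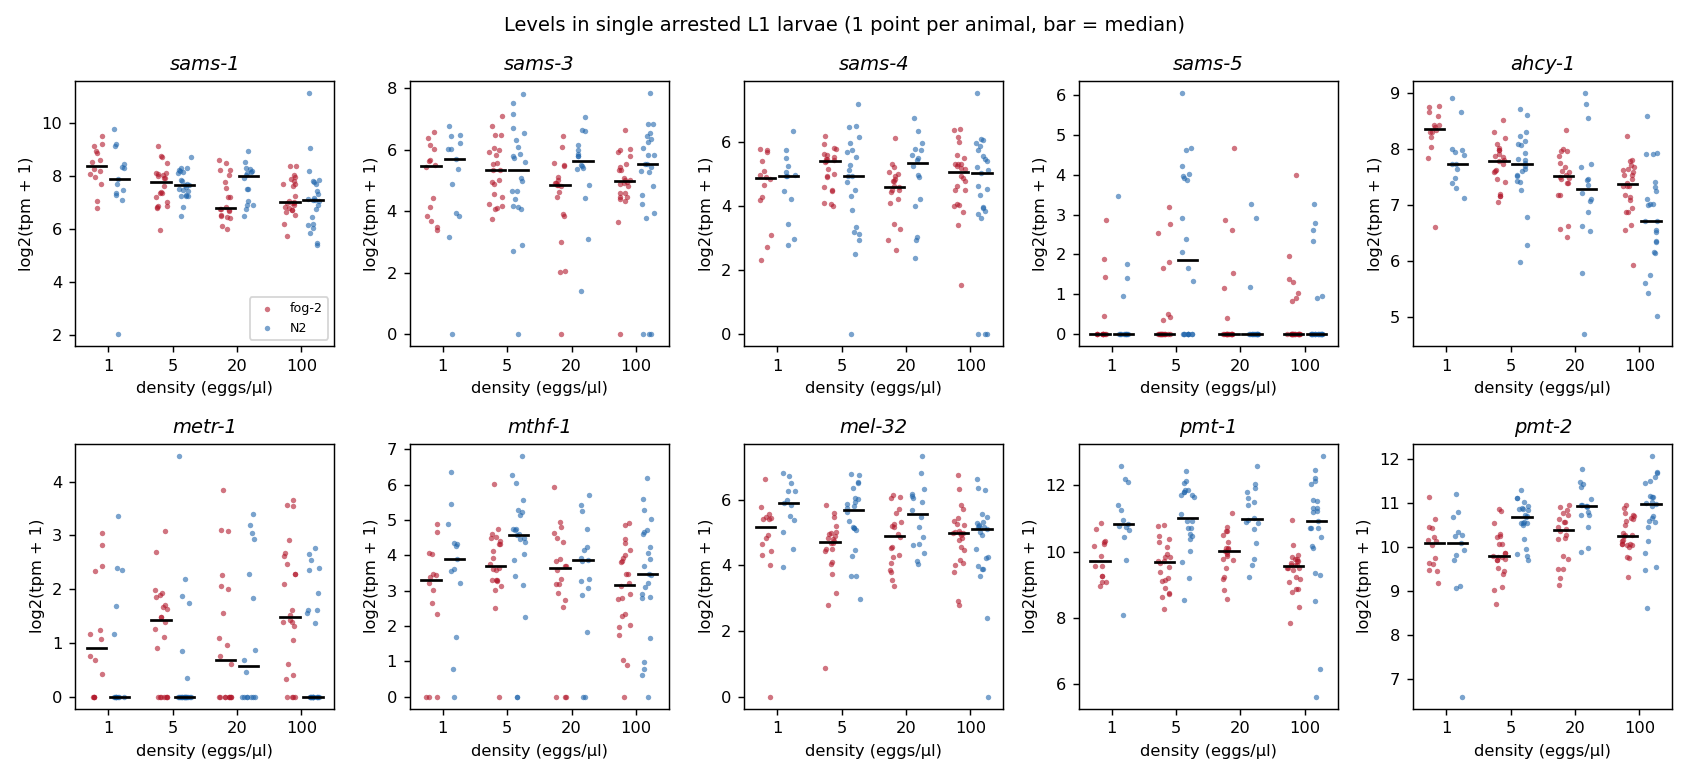
Levels of the 10 genes, as log2(tpm + 1), by density in eggs/μL, with 1 point per animal, *fog-2* in red, N2 in blue and the group median as a bar. The *ahcy-1* medians step down from 327 to 164 tpm in *fog-2* and from 212 to 104 tpm in N2, while *sams-5* and *metr-1* have many animals at 0.

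A pair of genes of the cycle was lower at the highest density. A gene of the phosphocholine route was higher, and 1 of 10 is near the share of all genes. In the comparison of 100 with 1 egg/μL over both strains, *ahcy-1* and *sams-1* fell and *pmt-2* rose, and the other 7 did not pass the test. The count of 2 lower of 10 stands beside 2.05% of all 16468 genes tested, and the count of 1 higher beside 10.3%. The study lists both lower genes as density-repressed in these animals, and the 10 were chosen with earlier results known. The count of 2 of 10, here and below, is therefore no independent support. The median change of the 10 was -0.056 on the log2 scale, beside 0.24 for all genes tested. Changes are from limma, as differences of log2(tpm + 1) in a fit that also held strain, with p-values adjusted over all genes, and this scale understates the change of genes at low levels.

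*ahcy-1* encodes the enzyme that removes the product that inhibits methyltransferases. At 1 egg/μL the *fog-2* animals ranged from 96.6 to 435 tpm with a median of 327 tpm, and at 100 eggs/μL from 59.9 to 300.0 tpm with a median of 164 tpm. All 24 animals at 100 eggs/μL were below the median of those at 1 egg/μL, although the ranges overlapped. In N2 the animals ranged from 139 to 478 tpm (median 212 tpm) at 1 egg/μL and from 31.3 to 384 tpm (median 104 tpm) at 100 eggs/μL. There, 16 of 23 animals at 100 eggs/μL were below the lowest animal at 1 egg/μL. With the strains combined, the log2 change of *ahcy-1* was -1.01 (SE 0.17, limma, adjusted p = 2.4e-05), a fall. The mean level of the low-density *fog-2* animals was 1.95 times that of the high-density ones, and in N2 it was 1.87 times.

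*sams-1* encodes the most abundant of the 4 SAM synthetases here. In *fog-2* it ranged from 109 to 729 tpm (median 338 tpm) at 1 egg/μL and from 51.7 to 338 tpm (median 129 tpm) at 100 eggs/μL, with all 24 animals of the high density below the median of the low density. In N2 it ranged from 3.05 to 878 tpm (median 237 tpm) at 1 egg/μL and from 40.8 to 2275 tpm (median 137 tpm) at 100 eggs/μL, with 20 of 23 animals below the median of the low density. The lowest and the highest of these N2 values belong to animals that stood apart from their group. Over both strains *sams-1* fell by 0.84 (SE 0.28, limma, adjusted p = 0.0319). Without the animals at these densities that stood apart it fell by 1.19 (adjusted p = 3.17e-05), and over 18 refits it was called in 10.

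*pmt-2*, which encodes the methyltransferase of the later steps toward phosphocholine, differed in the other direction. In N2 it ranged from 96.3 to 2365 tpm (median 1094 tpm) at 1 egg/μL and from 392 to 4308 tpm (median 2012 tpm) at 100 eggs/μL, where 19 of 23 animals were above the median of the low density. In *fog-2* it ranged from 578 to 2241 tpm (median 1090 tpm) and from 643 to 1990 tpm (median 1222 tpm), with 15 of 24 animals above. The groups overlapped in both strains. Over both strains *pmt-2* rose by 0.60 (SE 0.18, limma, adjusted p = 0.0211).

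Animals carry a digit from 1 to 3 in their names, whose meaning the labels do not give, and the direction of each change could be read within each digit. Over the 6 combinations of strain and digit, *ahcy-1* was lower at 100 eggs/μL in 6 (-1.24 to -0.66), *sams-1* in 5 (-1.32 to 0.12) and *pmt-2* was higher in 6 (0.15 to 1.70), although 1 combination held only 1 animal at 1 egg/μL. Leaving out the animals of any 1 digit ended the calls of *sams-1* (adjusted p = 0.169, 0.197 and 0.109 without digits 1, 2 and 3) and *pmt-2* (0.118, 0.0511 and 0.362), and leaving out digit 3 ended that of *ahcy-1* (0.0716). With the number of detected genes as a covariate only *ahcy-1* was called among the 10 (-1.01, adjusted p = 0.000259), while *sams-1* had -0.81 (adjusted p = 0.147) and *pmt-2* 0.49 (adjusted p = 0.193).

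The 7 remaining genes are given with the 95% interval of their change between 1 and 100 eggs/μL, since a p above the threshold does not show that the levels were alike. Among the other SAM synthetases, *sams-3* had a change of -0.10 (-0.88 to 0.67), *sams-4* of 0.043 (-0.63 to 0.72) and *sams-5* of -0.0098 (-0.49 to 0.47). Among the genes that rebuild methionine, *metr-1* had a change of 0.28 (-0.28 to 0.85), *mthf-1* of 0.023 (-0.73 to 0.77) and *mel-32* of -0.48 (-1.07 to 0.11). *pmt-1*, which encodes the methyltransferase of the opening step, had a change of -0.36 (-0.90 to 0.19). Except for *mel-32* and *pmt-1*, the sign of these 7 turned under at least 1 other way of processing the values.

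**Figure D2:**
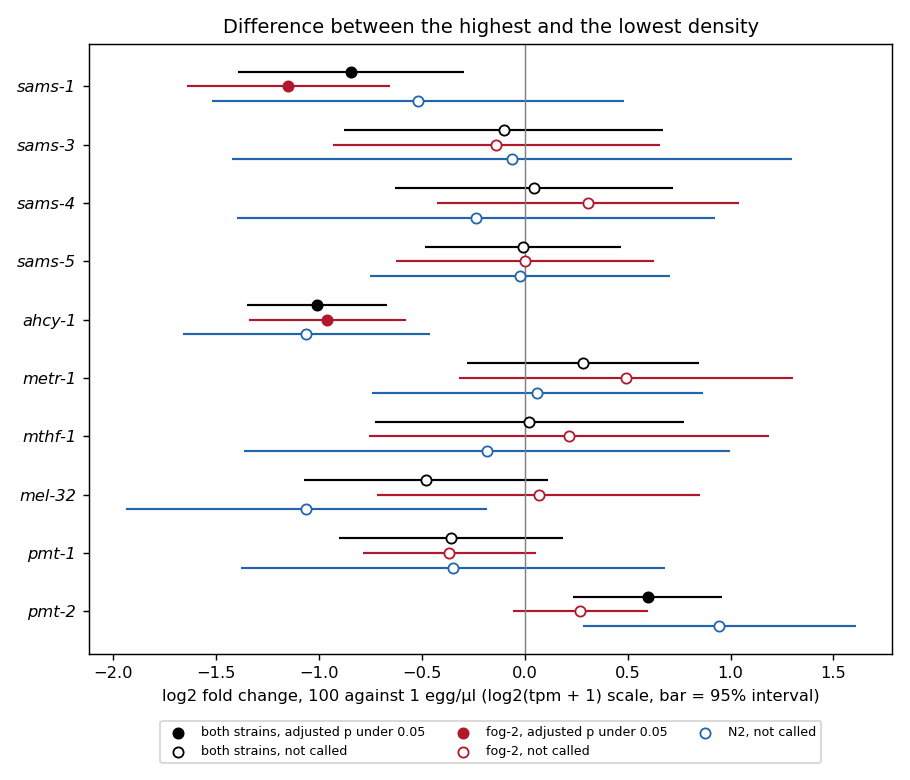
Change of each gene between 1 and 100 eggs/μL on the log2(tpm + 1) scale, with its 95% interval, over both strains (black) and in *fog-2* (red) and N2 (blue) alone, where filled points passed an adjusted p of 0.05. Over both strains the intervals of *ahcy-1* (-1.35 to -0.67) and *sams-1* (-1.39 to -0.29) lie below 0 and that of *pmt-2* (0.23 to 0.96) above it.

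Each strain was next fitted alone. In *fog-2*, *sams-1* fell by 1.15 (SE 0.25, limma, adjusted p = 0.00335) and *ahcy-1* by 0.96 (SE 0.19, adjusted p = 0.00141), 2 of 10 beside 1.11% of all genes called lower, while 0 of 10 were called higher beside 5.65%. Without the animals of digit 2 *sams-1* was not called there (adjusted p = 0.0659), nor *ahcy-1* without those of digit 3 (adjusted p = 0.112). *pmt-2* differed by 0.27 (SE 0.16, adjusted p = 0.335) and *pmt-1* by -0.37 (SE 0.21, adjusted p = 0.303) in *fog-2*. In N2 limma called 0 of 10 in either direction, beside 0.17% of all genes called lower and 0.0789% higher. At an unadjusted p under 0.05 in N2 there were 1785 of all 16468 genes and 3 of the 10. These 3 were *ahcy-1* (-1.06, SE 0.30, adjusted p = 0.148), *mel-32* (-1.06, SE 0.44, adjusted p = 0.381) and *pmt-2* (0.94, SE 0.33, adjusted p = 0.297). *ahcy-1* was called lower in N2 once the animals that stood apart were left out (-1.19, adjusted p = 0.049), and there *sams-1* moved from -0.52 (SE 0.50, adjusted p = 0.712) to -1.21 (adjusted p = 0.105).

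The change with density was not shown to differ between strains for any of the 10. As an interaction term limma called 0 of them, beside 0% of all genes, with 0 of 10 members and 1114 of all 16468 genes at an unadjusted p under 0.05. *mel-32* had the largest difference, 1.13 higher in *fog-2* than in N2 (95% interval -0.037 to 2.29, adjusted p = 0.751). In N2 its median was 58.7 tpm at 1 egg/μL and 33.3 tpm at 100 eggs/μL, with 20 of 23 animals below the median of the low density, and in *fog-2* the medians were 35.3 and 30.8 tpm, with 16 of 24 below. For *pmt-2* the difference was -0.67 (-1.39 to 0.041, adjusted p = 0.77) and for *sams-1* -0.63 (-1.73 to 0.47, adjusted p = 0.889).

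The called genes were also followed over the intermediate densities. The *fog-2* medians of *ahcy-1* were 327, 220 (lowest 132, highest 363), 181 (84.7 to 322) and 164 tpm at 1, 5, 20 and 100 eggs/μL, and the N2 medians were 212, 210.5 (61.7 to 417), 155 (24.9 to 509) and 104 tpm. *ahcy-1* thus had a lower median at each higher density in both strains, with overlap between all neighbors. The slope of *ahcy-1* over the 4 densities was -0.15 per doubling of density (SE 0.023, limma, adjusted p = 2.34e-07).

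*sams-1* had medians of 338, 219.5, 111 and 129 tpm in *fog-2* and of 237, 201, 256 and 137 tpm in N2. The lowest median was at 20 eggs/μL in *fog-2* and at 100 eggs/μL in N2. Its slope was -0.12 per doubling (SE 0.033, adjusted p = 0.00382). *pmt-2* had medians of 1090, 885, 1336 and 1222 tpm in *fog-2* and of 1094, 1656, 1952 and 2012 tpm in N2, and its slope was 0.091 (SE 0.022, adjusted p = 0.00199). In the trend 2 of 10 were lower, beside 2.34% of all 18910 genes tested, and 1 of 10 higher, beside 12.8%. Without the animals of digit 3 the *pmt-2* slope was not called (0.07, adjusted p = 0.101), and without those of digit 2 that of *sams-1* was not (-0.11, adjusted p = 0.0826).

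The slopes of the other 7 did not pass the test. They were -0.036 for *sams-3*, -0.012 for *sams-4*, -0.056 for *sams-5*, 0.057 for *metr-1*, -0.048 for *mthf-1*, -0.056 for *mel-32* and -0.050 for *pmt-1* per doubling.

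No single step between neighboring densities passed the test for any of the 10 in limma. From 1 to 5 eggs/μL 0.682% of all genes were called higher and 0.175% lower, from 5 to 20 eggs/μL 0.0212% and 0.471%, and from 20 to 100 eggs/μL 8.42% and 0.243%. The 1592 genes called higher in the last step became 3 when only genes with a mean of at least 10 tpm were tested, 53 with detected genes as a covariate, 169 with quantile normalization and 165 without the animals of digit 1. At an unadjusted p under 0.05 in limma there were 1864, 1223 and 3958 of all 18910 genes in these steps. Of the 10 there were 3, 3 and 2. *ahcy-1* was among them in each, with changes of -0.35, -0.35 and -0.31 (adjusted p = 0.48, 0.656 and 0.212). The steps of *sams-1* were -0.36, -0.26 and -0.22, and those of *pmt-2* were 0.28, 0.34 and -0.024, the last with an adjusted p of 0.954 and a sign that turned in 4 other settings.

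Of the other steps at an unadjusted p under 0.05, *pmt-1* had -0.48 from 20 to 100 eggs/μL (adjusted p = 0.173). *mthf-1* had 0.82 (adjusted p = 0.437) from 1 to 5 eggs/μL. Its change from 5 to 20 eggs/μL, -0.60 (adjusted p = 0.835), had an unadjusted p of 0.084 in limma. *pmt-2* was under 0.05 in that step. *sams-5* had 0.81 (adjusted p = 0.281) from 1 to 5 eggs/μL and -0.75 (adjusted p = 0.464) from 5 to 20 eggs/μL. In N2 *sams-5* was listed at 0 in 9 of 22 animals at 5 eggs/μL and reached 65.6 tpm, against 9 of 13, 13 of 16 and 17 of 23 animals at 0 at 1, 20 and 100 eggs/μL, where the highest at 20 and 100 eggs/μL were 8.72 and 8.59 tpm. At 5 eggs/μL the 8 N2 animals of digit 1 were all above 0 (3.16 to 65.6 tpm, mean 20.1 tpm) and the 7 of digit 2 were all at 0, and the mean without digit 1 was 3.30 tpm. Without digit 1 the step from 1 to 5 eggs/μL over both strains was 0.35 (adjusted p = 0.778). In *fog-2* the animals at 0 were 10 of 14, 14 of 22, 14 of 20 and 17 of 24.

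The sum of the other SAM synthetases was not shown to differ between 1 and 100 eggs/μL. *sams-3*, *sams-4* and *sams-5* together had medians of 75.6 tpm at 1 egg/μL (14.2 to 145 tpm) and 69.2 tpm at 100 eggs/μL (1.91 to 179.9 tpm) in *fog-2*, and of 87.4 and 77.7 tpm in N2. By a two-sided permutation test, the log2 sum differed by 0.061 in *fog-2* (adjusted p = 0.878) and by -0.19 in N2 (adjusted p = 0.878). With *sams-1* added, the 4 genes had medians of 406 and 212 tpm in *fog-2*, where 24 of 24 animals at 100 eggs/μL were below the median of those at 1 egg/μL, and of 361 and 221 tpm in N2, where 18 of 23 were.

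*sams-3* and *sams-4* are close paralogs, and reads that fit both could be split between them by the authors' estimation, so their separate levels are uncertain. After the 8 group means were removed, their levels had a Pearson correlation of 0.89 over all animals of the series, which share depth within an animal and may share reads between these genes. Their *fog-2* medians ran from 27.8 to 43.0 tpm for *sams-3* and from 23.2 to 40.9 tpm for *sams-4*, and in N2 from 40.3 to 50.9 and from 29.4 to 39.8 tpm. The 4 transcript rows of *sams-3* split its total into 18.6% to 38.2% each at every density, and the 2 rows of *sams-4* into 35.5% to 64.5%. The largest share of *sams-3* in *fog-2*, that of C06E7.1a, was 36.5% at 1 and 37.5% at 100 eggs/μL.

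Of the 45 pairs among the 10 genes, 4 had a correlation above 0.2 across all animals after group means were removed, and the median was 0.062. Besides *sams-3* with *sams-4* these were *pmt-1* with *pmt-2* (0.44), *sams-1* with *ahcy-1* (0.31) and *ahcy-1* with *mel-32* (0.20), and the lowest was *ahcy-1* with *pmt-1* (-0.25). Among 7660 genes with a mean of at least 10 tpm, the patterns most like *ahcy-1* were those of *rpl-6* (0.68), *rps-3A* (0.68) and *rpl-10a* (0.68), which encode ribosomal proteins. For *sams-1* they were *twf-2* (0.54), *gmap-1* (0.54) and *ccg-1* (0.54), and for *pmt-2* they were T25B9.1 (0.63), *aass-1* (0.60) and *srp-7* (0.59), a serpin.

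The ratio of the PMT transcripts differed with density. In N2 the mean log2 ratio of *pmt-2* to *pmt-1* was -1.07 ± 0.78 (SD, n = 13) at 1 egg/μL and 0.22 ± 1.43 (n = 23) at 100 eggs/μL, a difference of 1.29 (two-sided permutation test, adjusted p = 0.0172). In *fog-2* it was 0.22 ± 0.78 (n = 14) and 0.86 ± 0.67 (n = 24), a difference of 0.64 (permutation test, adjusted p = 0.0328). At 5 and 20 eggs/μL the means were -0.41 and -0.11 in N2 and 0.24 and 0.30 in *fog-2*. The N2 medians at 1 and 100 eggs/μL were -1.07 and 0.21. The 2 N2 animals at 100 eggs/μL that stood apart had 48.2 and 86.4 tpm of *pmt-1*, beside 708.5 and 392 tpm of *pmt-2*. This ratio was not tested without the animals that stood apart. *pmt-2* exceeded *pmt-1* in 2 of 13 N2 animals at 1 egg/μL and in 14 of 23 at 100 eggs/μL, and in 7 of 14 and 21 of 24 *fog-2* animals. Leaving out the animals under 500000 aligned reads or those of digit 2 or 3 ended these calls in both strains.

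The levels of *pmt-1* in the strains are given as values with no test, because each strain has its own table. It had medians of 843, 827, 1027 and 750.1 tpm at 1, 5, 20 and 100 eggs/μL in *fog-2* and of 1843, 2095, 2022 and 1951 tpm in N2. Within N2 it ranged from 48.2 to 7614 tpm at 100 eggs/μL, and the lowest value was from an animal that stood apart.

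The ratio of *ahcy-1* to *sams-1*, which both fell, was not shown to differ between 1 and 100 eggs/μL. By permutation test, two-sided, the mean log2 ratio was -0.095 ± 0.62 (SD, n = 14) and 0.095 ± 0.81 (n = 24) in *fog-2* (adjusted p = 0.605), and 0.13 ± 1.80 (n = 13) and -0.41 ± 1.19 (n = 23) in N2 (permutation test, adjusted p = 0.482). The N2 medians of this ratio were -0.37 and -0.32. The N2 animal at 1 egg/μL that stood apart had the highest ratio of its group, 5.72. The 8 permutation tests of sums, ratios and detected genes were adjusted together.

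**Figure D3:**
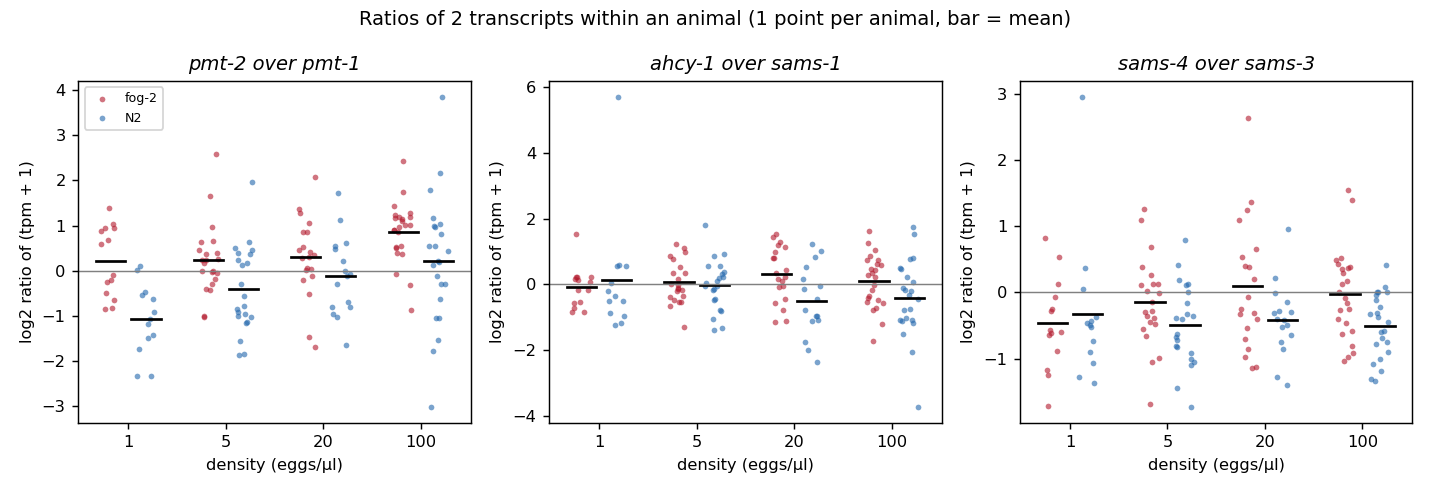
Log2 ratios of (tpm + 1) within each animal by density in eggs/μL, *fog-2* in red and N2 in blue, with the group mean as a bar. The mean ratio of *pmt-2* to *pmt-1* goes from -1.07 to 0.22 in N2 and from 0.22 to 0.86 in *fog-2*, while the group means of *ahcy-1* over *sams-1* stay between -0.50 and 0.31. All means include the animals that stood apart.

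Genes that recycle or spend the products of the cycle were compared through 7 lists, given as counts of genes past the same test of 100 against 1 egg/μL over both strains (10.3% of all genes higher, 2.05% lower). Of 14 other genes of the methionine cycle and folate metabolism, 1 was lower and 0 higher. It was *adk-1*, encoding adenosine kinase, which clears the adenosine that AHCY-1 releases (-0.70, SE 0.17, limma, adjusted p = 0.00524), with medians of 190.5 and 135 tpm in *fog-2* and 182 and 105 tpm in N2 at 1 and 100 eggs/μL. It was not called without the animals of digit 2 (adjusted p = 0.182) or 3 (adjusted p = 0.138) or with means by digit (adjusted p = 0.106), which left 0 lower. The median change of this list was 0.18, beside 0.24 for all genes.

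Of 31 SAM-dependent methyltransferases tested, 2 were lower and 1 higher, with a median of 0.067. *prmt-1*, encoding the main asymmetric protein arginine methyltransferase, fell by 0.92 (SE 0.14, adjusted p = 3.69e-06). Its *fog-2* animals ranged from 236 to 560 tpm (median 336 tpm) at 1 egg/μL and from 104 to 300.3 tpm (median 172 tpm) at 100 eggs/μL, and the N2 medians were 453 and 223 tpm. *comt-2*, a catechol-O-methyltransferase homolog, fell by 1.68 (SE 0.38, adjusted p = 0.00176), from medians of 3.98 and 5.84 tpm in *fog-2* and N2 to a median of 0 in both. *anmt-1*, an amine N-methyltransferase homolog, rose by 1.63 (SE 0.39, adjusted p = 0.0034), to medians of 7.31 and 4.93 tpm. Without the animals of digit 3 neither *comt-2* (adjusted p = 0.316) nor *anmt-1* (adjusted p = 0.11) was called, and *comt-2* was not called without digit 2 (adjusted p = 0.0504).

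Past homocysteine the cycle opens into transsulfuration. In the list of transsulfuration and sulfide genes 3 of 12 were higher and 0 lower, with a median change of 0.34. The 3 were *sqrd-1*, *gcs-1* and *cdo-1*, and no *cbs* or *cth* gene of the list was called. *sqrd-1*, encoding the sulfide:quinone oxidoreductase that detoxifies hydrogen sulfide, rose by 1.84 (SE 0.28, adjusted p = 3.13e-06), from medians of 48.2 to 127 tpm in *fog-2* and of 91.4 to 270.3 tpm in N2. It was also called in each strain alone. *gcs-1*, encoding the enzyme that starts glutathione synthesis (1.05, SE 0.28, adjusted p = 0.00975), and *cdo-1*, encoding cysteine dioxygenase (1.26, SE 0.35, adjusted p = 0.0104), rose as well. Without the animals of digit 1, 2 or 3 the count was 1, 2 or 1.

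The vitamin B12 and propionate list, in which methylmalonyl-CoA mutase uses vitamin B12 as METR-1 does, had 6 of 15 genes higher and 0 lower, with a median of 0.41. These included *mce-1*, encoding methylmalonyl-CoA epimerase (1.69, SE 0.38, adjusted p = 0.00174), *pcca-1* (0.70, SE 0.17, adjusted p = 0.00369) and *pccb-1* (0.92, SE 0.22, adjusted p = 0.00372), the subunits of propionyl-CoA carboxylase, and *mmcm-1*, the methylmalonyl-CoA mutase (0.93, SE 0.26, adjusted p = 0.0133). The *pccb-1* medians were 71.7 and 163 tpm in *fog-2* and 93.4 and 153.7 tpm in N2 at 1 and 100 eggs/μL. The count higher was 2 with detected genes as a covariate, 4 without the animals that stood apart, and 3, 3 and 1 without digits 1, 2 and 3. The count lower was 1 without the animals that stood apart and without digit 1. It was also 1 without the *fog-2* animals of digit 1 at 1 egg/μL, a setting chosen after seeing the data.

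On the lipid side few genes passed. Of 21 genes of CDP-choline and other phospholipid synthesis limma called 0. At an unadjusted p under 0.05 there were 3 of these 21, beside 4248 of all 16468 genes. In this list *pssy-1*, encoding a phosphatidylserine synthase, had the smallest p (0.92, SE 0.35, adjusted p = 0.0682). The count higher was 3 without animals under 500000 aligned reads and 1 with aligned reads as a covariate, *pssy-1* among them in both (adjusted p = 0.0253 and 0.0357), and with detected genes as a covariate 1 was lower. Of 13 lipogenic genes under the SREBP homolog SBP-1, 1 was higher and 1 lower, with a median of -0.080. *fat-2*, encoding a fatty acid desaturase, fell by 0.82 (SE 0.23, adjusted p = 0.0121), from medians of 677 to 385 tpm in *fog-2* and 845 to 587 tpm in N2, and *elo-5*, encoding an elongase for branched-chain fatty acids, rose by 1.45 (SE 0.50, adjusted p = 0.0417). *elo-5* was not called in 12 of 17 refits with other settings (adjusted p up to 0.299). *fat-2* was not called with detected genes as a covariate (adjusted p = 0.0677), without digit 2 (0.166) or 3 (0.175) or with means by digit (0.0939). In methionine salvage and polyamine synthesis 0 of 5 genes were called, 0 of them at an unadjusted p under 0.05, and *odc-1*, encoding ornithine decarboxylase, had the smallest p (0.77, SE 0.43, adjusted p = 0.257).

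**Figure D4:**
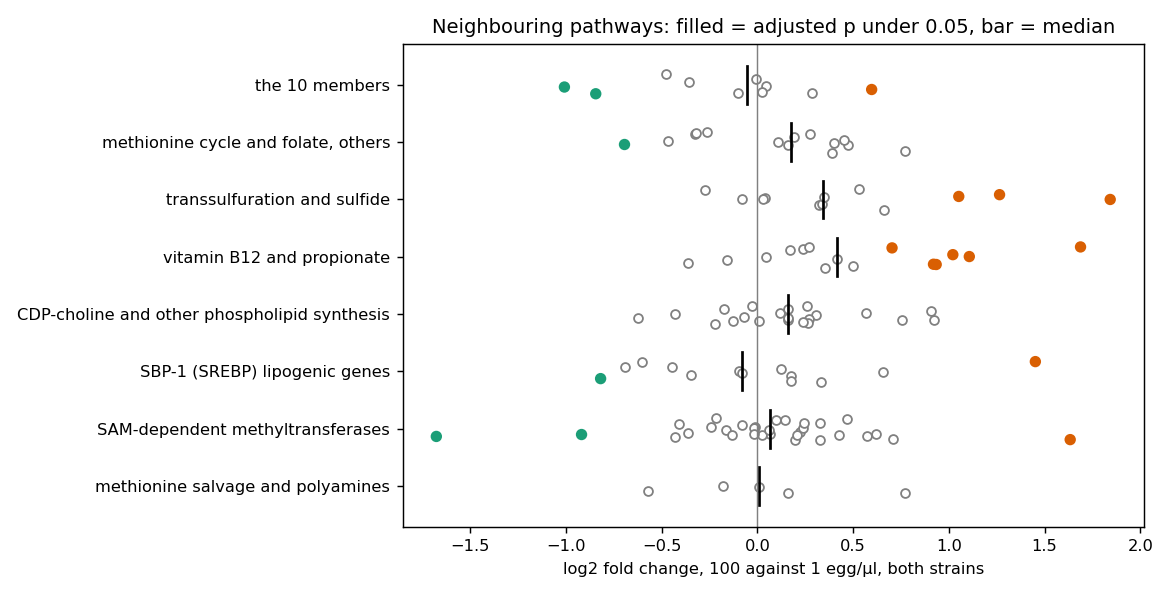
Change of every tested gene of the 7 neighboring lists and of the 10 genes between 1 and 100 eggs/μL over both strains, on the log2(tpm + 1) scale, where filled points passed an adjusted p of 0.05 and bars are list medians. The list medians run from -0.080 to 0.41. On the higher side, 6 genes of the vitamin B12 and propionate list and 3 of the transsulfuration and sulfide list are filled.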

How the data were processed

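Single-larva RNA-Seq libraries were analysed from the deposited tables, in which the authors give tpm per transcript from RSEM, with Bowtie and the ce11 build listed in the submitters' notes without versions. Rows were summed to genes. Of the columns, 146 were matched to 1 labelled animal and 8 to their group only. Values were analysed as log2(tpm + 1), for genes at 1 tpm or more in at least 13 animals of the fit, with limma 3.58.1 (R 4.3.3, mean-variance trend, Benjamini-Hochberg adjustment, threshold 0.05). Sums and ratios within an animal were compared by two-sided permutation tests of 100000 resamples in Python 3.11.15 with numpy 2.4.6. The tests were checked on simulated data in which animals were independent, so the check does not cover ties between animals of a tube or name digit. tpm carry no counts, so no counting interval is given.

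Named were the 10 members, up to 4 genes of each list with the smallest adjusted p past the threshold (otherwise the gene with the smallest p), and the 3 genes most correlated with *sams-1*, *ahcy-1* and *pmt-2*. Of 207 listed genes, 204 were matched by symbol. The members and lists were chosen with earlier results of these data known. Alternatives changed the pseudocount, filter, normalization, depth covariates, animals, name digit, row summing, variance model and threshold. Aligned reads per animal came from the study's read table.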

Additional observations from a re-analysis of the deposited data

How the results depend on the processing

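Over 18 refits with other settings, the change of *ahcy-1* between 1 and 100 eggs/μL ran from -1.11 to -0.83 and was called in 17, that of *sams-1* from -1.19 to -0.73 and was called in 10, and that of *pmt-2* from 0.42 to 0.71 and was called in 12. The median of all genes tested moved from 0.24 to 0.035 under quantile normalization and to -0.019 with detected genes as a covariate. Where a sentence below gives no cause, the cause was not tested; fewer animals entered each fit that leaves some out.

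The number of members called higher (1) became 0 with detected genes as a covariate, without name digit 1, 2 or 3, with the name digit as a replicate block, with means by name digit and at a threshold of 0.01. The number called lower (2) became 1 with detected genes as a covariate, without animals under 500000 reads, without digit 1 or 2, with the replicate block, with digit means, at 0.01 and, chosen after seeing the data, without the 3 *fog-2* animals of digit 1 at 1 egg/μL, and 0 without digit 3. In *fog-2* the 2 called lower became 1 without digit 2 or 3 and 0 with digit means, and in N2 the 0 became 1 without animals under 500000 reads, without those that stood apart or without the 2 such N2 animals at 100 eggs/μL (also chosen after seeing the data). In the trend the 1 higher became 0 without digit 3 and the 2 lower became 1 without digit 2. Whether same-digit animals belong together is not given by the labels. The 36 same-digit pairs of group deviations correlated at -0.097 to 0.31, 14 above 0.1. Pairs of unlike digits were not computed as a reference, so this check cannot decide it. The block was used as an alternative, in which *ahcy-1* had -0.996, *sams-1* -0.81 and *pmt-2* 0.55.

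All genes called higher (1698) became 938 with a pseudocount of 10, 307 with a mean of at least 10 tpm, 403 with quantile normalization, 157 with detected genes as a covariate, 359, 756 and 180 without digits 1, 2 and 3, 502 with digit means, 501 at 0.01 and 1120 without the *fog-2* animals of digit 1 at 1 egg/μL. Those called lower (338) became 160 and 57 without digits 2 and 3, 87 with digit means and 173 at 0.01.

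The *pmt-2* to *pmt-1* ratio was no longer called in N2 without animals under 500000 reads (1.28), digit 2 (1.498) or digit 3 (0.90), nor in *fog-2* (0.58, 0.47 and 0.55), and detected genes in *fog-2* not without digit 1 (1665). The ratio of *ahcy-1* to *sams-1* in *fog-2* turned to -0.030 without digit 2. The sum of *sams-3*, *sams-4* and *sams-5* turned in N2 to 0.015 with a pseudocount of 10, 0.22 without animals under 500000 reads and 0.038 without digit 2, and in *fog-2* to -0.39 without digit 3.

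None of the members was called in a comparison in which its sign turned. Between 1 and 100 eggs/μL, *sams-3* became 0.077 without animals under 500000 reads, 0.051 and 0.099 without digits 1 and 2, and 0.026 by single transcript rows. *sams-4* became -0.15 with a pseudocount of 0.1, -0.028 with quantile normalization, -0.40 with detected genes, -0.36 without digit 3 and -0.17 with digit means. *sams-5* became 0.0037 with a pseudocount of 10, 0.0015 with aligned reads as a covariate, 0.0013 without animals that stood apart, 0.058 with digit means, 0.044 by single rows and 0.052 without the *fog-2* animals of digit 1 at 1 egg/μL. *metr-1* became -0.16 with quantile normalization and -0.11 with detected genes. *mthf-1* became -0.044 with a pseudocount of 10, -0.28 with quantile normalization, -0.48 with detected genes, -0.019 without animals under 500000 reads, -0.33 without those that stood apart, -0.46 without digit 1, -0.012 without the 2 N2 animals at 100 eggs/μL that stood apart and -0.21 without the *fog-2* animals of digit 1 at 1 egg/μL. In *fog-2* alone *mel-32* became -0.052 with a pseudocount of 10, -0.062 with quantile normalization, -0.021 without digit 1 and -0.11 both without animals that stood apart and without those of digit 1 at 1 egg/μL, and in N2 *pmt-1* became 0.085 without the 2 animals at 100 eggs/μL that stood apart. From 20 to 100 eggs/μL *pmt-2* became 0.0055 with quantile normalization, 0.051 without animals that stood apart, 0.052 without the 2 of these in N2 at 100 eggs/μL and 0.073 without digit 3. The strain difference of *sams-1* became 0.040 without animals that stood apart. Slopes turned for *sams-4* to 0.0038 with a pseudocount of 10, 0.0081 without animals under 500000 reads, 0.0075 and 0.0059 without digits 1 and 2 and 0.00022 by single rows, for *metr-1* to -0.0065 with quantile normalization and for *mthf-1* to 0.060 with digit means.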

Other observations

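Over the 4 densities, 2 genes of the 7 neighboring lists that were not called between 1 and 100 eggs/μL passed the trend test, and both were picked out after their values were seen. *dao-3*, a folate enzyme of the dehydrogenase and cyclohydrolase type, had a slope of -0.14 per doubling of density (SE 0.050, limma, adjusted p = 0.0348) at a mean of 6.79 tpm. *fat-7*, a stearoyl-CoA desaturase, had a slope of 0.067 (SE 0.021, adjusted p = 0.0205) at a mean of only 0.362 tpm, and it did not reach the low-value filter in the comparison of 100 with 1 egg/μL.

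Of the remaining vitamin B12 and propionate genes called between 1 and 100 eggs/μL, *mmaa-1* rose by 1.11 (SE 0.35, limma, adjusted p = 0.0256) and *acdh-1*, an acyl-CoA dehydrogenase of the alternative propionate route at a mean of 1080 tpm, rose by 1.02 (SE 0.33, adjusted p = 0.0289). Neither gene was called with detected genes as a covariate, without digit 1 or without digit 3. The animal of N2 at 1 egg/μL that stood apart had 3.05 tpm of *sams-1*, 272 tpm of *pmt-1* and 96.3 tpm of *pmt-2*, beside 212 tpm of *ahcy-1*. Of the N2 animals at 100 eggs/μL that stood apart, 1 had 2275 tpm of *sams-1*, 86.4 tpm of *pmt-1* and 392 tpm of *pmt-2*, and the other had 219 tpm of *sams-1*, 48.2 tpm of *pmt-1* and 708.5 tpm of *pmt-2*.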
